A study of Mus musculus with 8 samples.

Results

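The genes described here are the mRNAs encoded by the mouse mitochondrial genome, measured in hearts with and without HVCN1. They were taken as every gene of the count table whose mouse symbol begins with mt-, a rule that found 13 of 39056 listed genes. All of them are protein-coding. The GENCODE M21 annotation carries 37 such symbols, and the 2 ribosomal RNAs and 22 transfer RNAs among them were not analysed here. The 8 libraries were each made from the heart of 1 male mouse, 3 months old. There were 4 HVCN1-/- hearts, labelled Hv1 null (hearts 1 to 4), and 4 wild-type hearts (WT, hearts 5 to 8), all on the C57BL/6 background, with no other allele or treatment named. RNA was captured by its poly-A tail. Most mitochondrial mRNAs receive such tails, and they were measured alongside nuclear mRNAs. HVCN1 is a voltage-gated proton channel, and the comparison asks what its deletion changes in the heart transcriptome.

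Mitochondrial DNA is a small circle that is copied and transcribed inside the organelle by enzymes made from nuclear genes. Both of its strands are transcribed into long precursors, which are cut at the transfer RNAs between the coding genes to release the mRNAs, and most of these then receive a short poly-A tail. The encoded proteins are core subunits of the respiratory chain complexes I, III and IV and of the ATP synthase, complex V, and cardiomyocytes are among the cells richest in these complexes.

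Library totals ranged from 25851255 to 38874640 counts. Hvcn1, the targeted gene, had 16 counts in all over the null hearts (6, 6, 1 and 3) and 318 over the WT hearts (102, 49, 99 and 68), with a log2 fold change of -4.20 (SE 0.38, edgeR quasi-likelihood adjusted p = 3.63e-04). Cardiomyocyte markers were high in all 8 hearts, at a summed 50569 to 66348 CPM (counts per 1000000 of the scaled library). Of these 7 markers, Actc1 alone had groups that did not overlap, against 7.06% of all genes. It measured 6078 to 6727 CPM in null and 7640 to 10536 CPM in WT hearts (log2 fold change -0.51, SE 0.12, edgeR quasi-likelihood adjusted p = 0.105). Over the alternative fits its adjusted p ran from 5.85e-04 to 0.293. The sum of 5 atrial markers varied widely inside both groups, from 308 to 4426 CPM in null and from 84.8 to 8169 CPM in WT hearts. The sum of 6 erythroid markers ran from 1292 to 8391 CPM in null and from 3018 to 15228 CPM in WT hearts. The sum of 4 smooth muscle markers did not overlap, at 271 to 522 CPM in null and 165 to 240 CPM in WT hearts. Its largest member Acta2 did not overlap either (150 to 357 against 79.5 to 125 CPM), with a log2 fold change of 1.32. It passed an adjusted p of 0.05 (edgeR quasi-likelihood, 0.0466), as did 1.14% of all genes. Over the alternative fits its adjusted p ran from 1.02e-05 to 0.149. Myh11, Tagln and Cnn1 each overlapped, and endothelial, fibroblast, macrophage and adipocyte sums overlapped. All 8 macrophage and all 6 erythroid markers were lower in null hearts, against 52.7% of all genes. Of these, 4 and 2 had an unadjusted edgeR p under 0.05, against 11.0% of all genes, and 0 passed an adjusted p of 0.05. The 4 tested atrial and 4 tested adipocyte markers were also lower, and all 4 smooth muscle markers were higher. The part of these differences in the values below was not tested. No marker was at 0 in all hearts, but the atrial Sln was at 0 in WT heart 8 and the adipocyte markers Lep and Ucp1 were at 0 in 3 and 6 of the 8 hearts. In whole hearts, fewer cells of a type and less RNA per cell cannot be told apart.

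Before the levels, the sequences of these genes bear on what a count means, because insertions of mitochondrial DNA lie in the nuclear genome and some are annotated there as genes. In the annotation, 11 nuclear pseudogenes matched a mitochondrial mRNA at 95% identity or more over at least 80% of their own length, and all 11 had counts. Of these, 7 lie side by side within 4663 bases of chromosome 1 (GRCm38, chr1:24611535-24616197, minus strand), 3 lie on chromosome 2 and 1 on chromosome 13. The chromosome 1 genes follow the order of the mitochondrial genome from mt-Co1 to mt-Nd4, and the spacing between neighbours equals the mitochondrial spacing in 5 of 6 cases and differs by 1 base in the other. Stretches of 60 bases from the GENCODE M21 transcripts show how alike gene and copy are, with capitals marking a mismatched base. The first is shared without a mismatch by mt-Co2, a complex IV subunit, and its chromosome 1 copy Gm28661, and the others pair mt-Nd2 with Gm13339 on chromosome 2 and mt-Nd5 with Gm4076 on chromosome 13.

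mt-Co2 bases 1 to 60: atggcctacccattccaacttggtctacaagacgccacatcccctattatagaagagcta
Gm28661 bases 1 to 60: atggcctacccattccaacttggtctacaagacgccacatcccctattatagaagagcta
mt-Nd2 bases 529 to 588: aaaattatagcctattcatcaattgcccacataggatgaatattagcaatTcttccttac
Gm13339 bases 1 to 60: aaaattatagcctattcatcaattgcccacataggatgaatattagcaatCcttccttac
mt-Nd5 bases 706 to 765: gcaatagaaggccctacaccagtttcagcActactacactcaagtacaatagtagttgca
Gm4076 bases 1 to 60: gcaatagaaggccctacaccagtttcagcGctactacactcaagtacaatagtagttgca

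The reads were 50 bases long at each end, so every 50-base window of each mitochondrial mRNA was looked up, on both strands, in all annotated transcripts of nuclear genes. None of the windows of mt-Nd1, mt-Atp8, mt-Nd6 and mt-Cytb occurred there. A small part did for mt-Nd5 (7.61%) and mt-Nd2 (8.19%), and a large part for mt-Co1 (51.1%) and mt-Nd4 (62.2%). Nearly all windows of 5 mRNAs were shared, namely mt-Nd3 (98.0%), mt-Nd4l (98.8%), mt-Atp6 (99.5%), mt-Co3 (99.9%) and mt-Co2 (100%). How the counting treated reads that match several genes is not given in the sources used here. This leaves the levels of these 5 genes uncertain, and with them their fold changes between genotypes.

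The 13 mRNAs took a large part of every library. Of all counts they held 29.5%, 26.5%, 23.7% and 25.1% in the null (hearts 1 to 4, in order) and 25.3%, 27.4%, 25.5% and 30.2% in the WT (hearts 5 to 8). The highest share was in WT heart 8 and the next in null heart 1, and the groups overlapped. The mean was 26.2% ± 2.47 (SD, n = 4) in null and 27.1% ± 2.30 (SD, n = 4) in WT, a difference of -0.911 percentage points (null minus WT) that is smaller than either SD. Without WT heart 8 the difference was 0.134 points, the opposite direction. The 4 hearts with the lowest atrial marker sums, null hearts 1 and 4 and WT hearts 6 and 8, had atrial sums of 308, 312, 122 and 84.8 CPM beside shares of 29.5%, 25.1%, 27.4% and 30.2%. The others, null hearts 2 and 3 and WT hearts 5 and 7, had 4426, 3585, 3179 and 8169 CPM beside 26.5%, 23.7%, 25.3% and 25.5%, and the part of atrial tissue in the share was not tested.

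**Figure D1:**
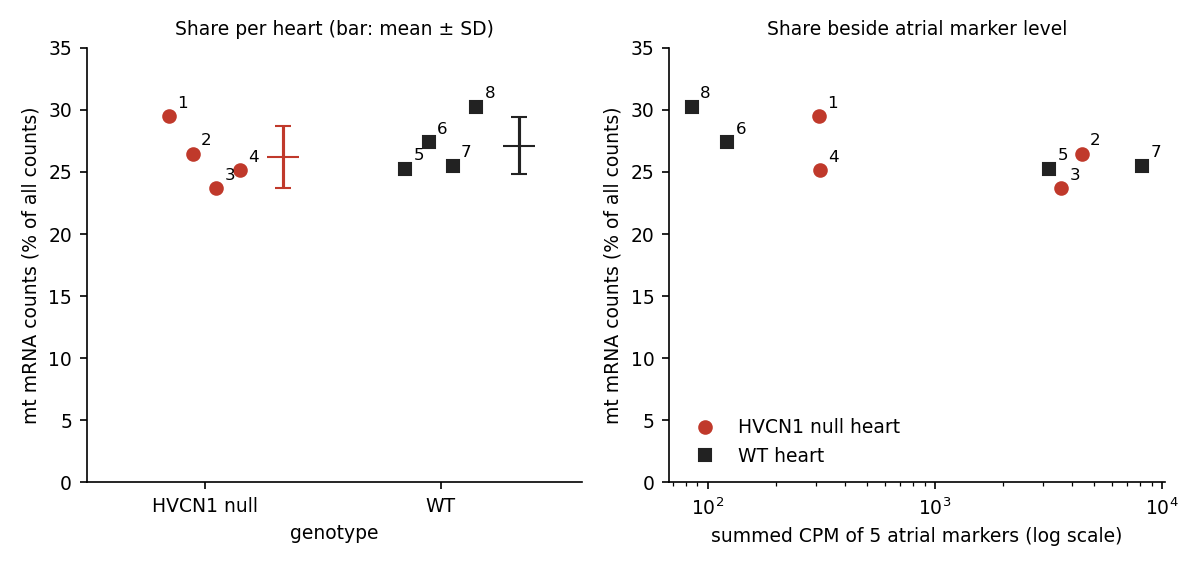
Percent of all counts on the 13 mitochondrial mRNAs in each of 4 HVCN1 null and 4 WT hearts, with the mean and SD of each group (left), and the same percent against the summed CPM of 5 atrial markers on a log axis (right). The null hearts span 23.7% to 29.5% and the WT hearts 25.3% to 30.2%, so the groups overlap.

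Most of that share came from few genes. The 6 mRNAs with more than 100000 counts in every heart were mt-Co1, mt-Cytb, mt-Nd1, mt-Nd2, mt-Nd5 and mt-Nd4, and together they held 99.6% to 99.7% of the mitochondrial counts. This limit was set after the counts were seen. The 5 mRNAs with nearly all windows in nuclear transcripts had 429 to 4136 counts each. Per kilobase of gene length, the abundant genes lay between 10016 and 86545 CPM and those 5 genes between 54.9 and 221 CPM over all hearts, so the lowest value of the first set was 45.2 times the highest of the second. mt-Nd6, at a mean of 1070 CPM per kilobase, lay between the sets. mt-Atp8, at 35.1 CPM per kilobase, was the lowest of all, although none of its windows occurred in an annotated nuclear transcript. Its place between mt-Co2 and mt-Atp6 corresponds on chromosome 1 to the 233 bases between Gm28661 and Gm10925, which hold no annotated transcript. The part of the shared sequence in these levels was not tested.

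**Figure D2:**
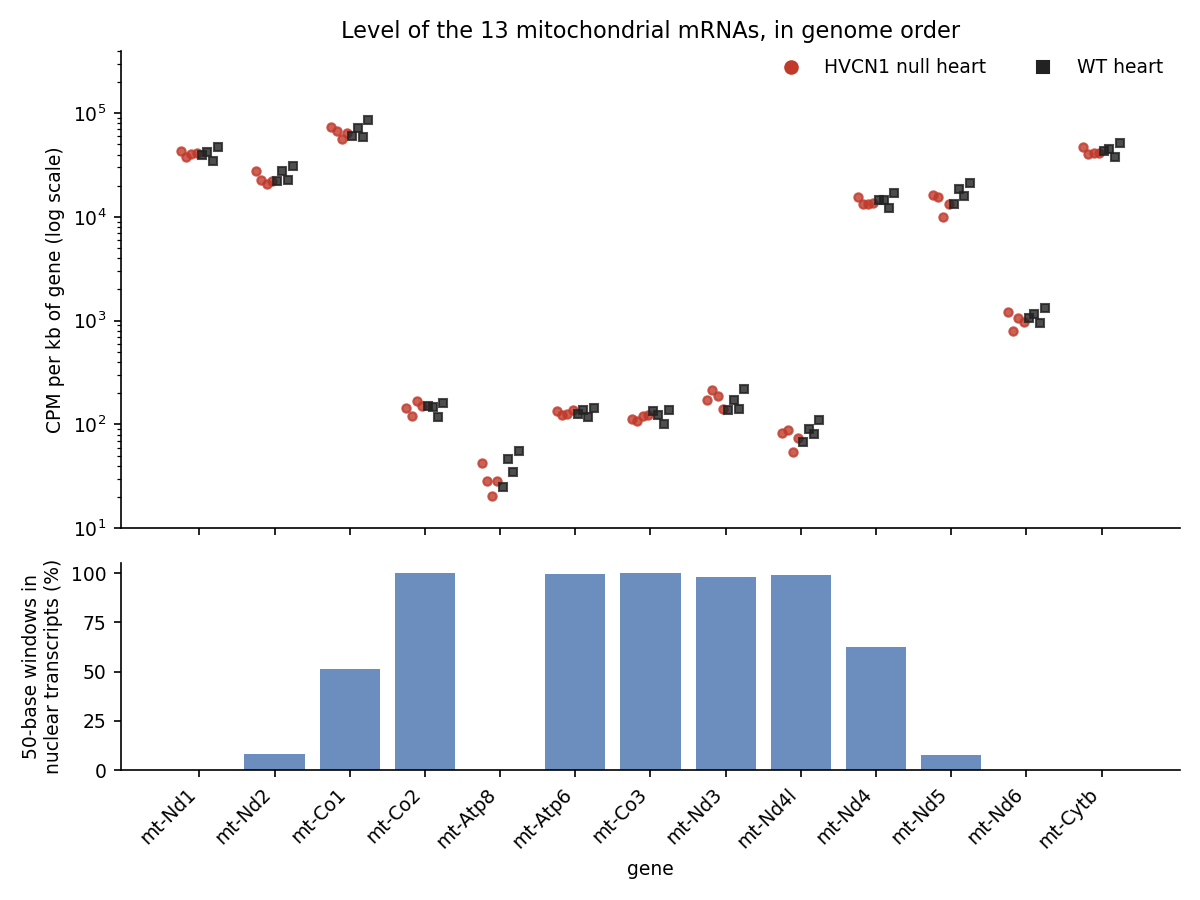
CPM per kilobase of gene length (log axis) of the 13 mitochondrial mRNAs in the 8 hearts, with a point for each heart (top) and the percent of each gene's 50-base windows that also occur in annotated nuclear transcripts (bottom). The 6 abundant genes lie above 10016 CPM per kilobase and the 5 genes with over 90% of windows shared lie below 221.4 CPM per kilobase.

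Ordered by CPM per kilobase, mt-Co1 stood first with a mean over 8 hearts of 67468, followed by mt-Cytb with 43461, mt-Nd1 with 40849, mt-Nd2 with 24660, mt-Nd5 with 15549 and mt-Nd4 with 14288. mt-Co1 exceeded mt-Cytb in 8 of 8 hearts, mt-Nd1 exceeded mt-Nd2 in 8 of 8 and mt-Nd2 exceeded mt-Nd5 in 8 of 8. mt-Cytb and mt-Nd1 were close, with a ratio of 1.06 ± 0.0411 (SD, n = 8) and mt-Cytb higher in 7 of 8 hearts. mt-Nd5 and mt-Nd4 could not be ordered, with a ratio of 1.09 ± 0.206 and mt-Nd5 higher in 5 of 8 hearts. Among the 5 genes with shared sequence, mt-Nd3, mt-Co2, mt-Atp6 and mt-Co3 followed each other at 175, 145, 131 and 120 CPM per kilobase, and each exceeded the next in 6 or 7 of 8 hearts. mt-Nd4l, at 81.2 CPM per kilobase, was lower than mt-Co3 and higher than mt-Atp8 in all 8 hearts. Counts were also divided by the windows absent from annotated nuclear transcripts, a lookup that took in no unannotated nuclear sequence and no read pairs. By this measure mt-Nd4 moved from 6th to 4th place, at 39220 CPM per kilobase of such windows against 28191 for mt-Nd2 and 17294 for mt-Nd5. On that scale mt-Co1 stood at 142596, and its ratio to mt-Cytb was 3.13 ± 0.216 in place of 1.55 ± 0.107 per kilobase, so the levels of mt-Co1 and mt-Nd4 depend on the treatment of shared windows too.

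No mitochondrial mRNA differed between the genotypes at an adjusted p under 0.05 (edgeR quasi-likelihood test with Benjamini-Hochberg adjustment over 14796 genes), against 1.14% of all genes tested, 0.743% higher and 0.399% lower in null hearts. None had an unadjusted p under 0.05, against 11.0% of all genes (5.52% lower in null hearts), and none had groups that did not overlap in CPM, against 7.06%. DESeq2, edgeR's exact test and limma voom also called 0 of the 13, against 3.15%, 2.48% and 0.994% of all genes. The log2 fold change (null over WT) was below 0 for 11 of the 13 with TMM scaling, against 52.7% of all genes, although mt-Nd1 turned above 0 with RLE scaling and mt-Nd1 and mt-Atp6 did without scaling. The median log2 fold change was -0.08 against -0.01 for all genes. The 13 include the 5 mRNAs with nearly all windows in nuclear transcripts, whose fold changes are as uncertain as their levels. These genes share precursor transcripts and are no independent measurements, and no gene's 95% interval excluded a log2 fold change of 0. With 4 hearts in each group, the intervals of the 6 abundant genes left room for changes of up to 0.75 down (mt-Nd5) and 0.27 up (mt-Nd1) on the log2 scale.

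**Figure D3:**
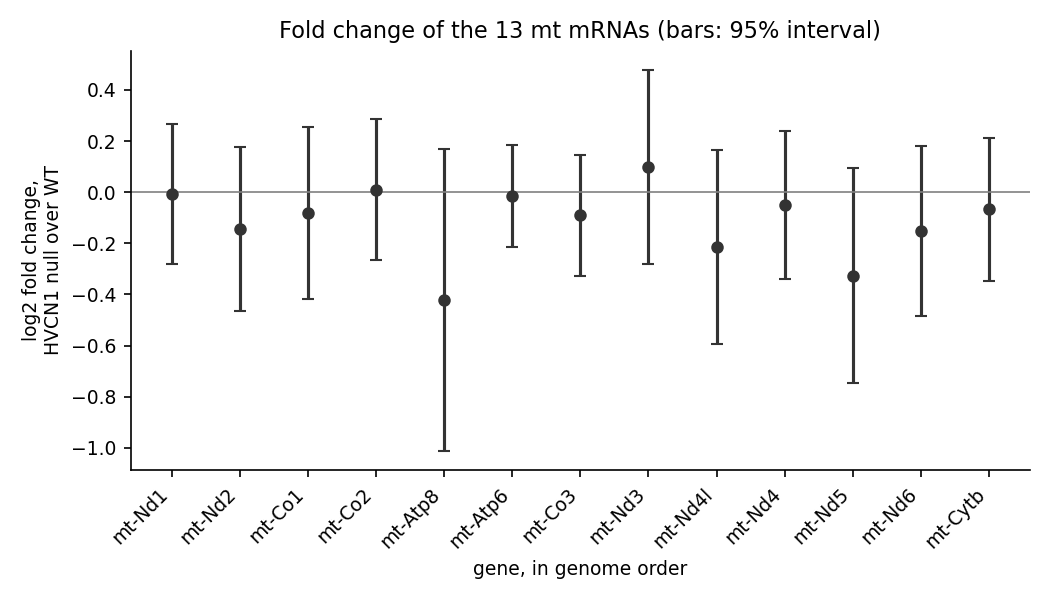
Log2 fold change (HVCN1 null over WT) of the 13 mitochondrial mRNAs with 95% confidence intervals from the edgeR fit, 4 hearts in each group. Every interval includes 0, and the estimates run from -0.42 for mt-Atp8 to 0.10 for mt-Nd3. Those of the 5 genes with over 90% of windows shared are uncertain.

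Complex I, the NADH dehydrogenase that passes electrons to ubiquinone, has 7 subunits encoded here. mt-Nd5 (ENSMUSG00000064367, chrM:11742-13565, plus strand), a proton-pumping membrane subunit, measured 29651, 28412, 18270 and 24307 CPM in null hearts, in order of their numbers, and 24107, 33712, 29339 and 39093 CPM in WT hearts. Null heart 3 was the lowest and WT heart 8 the highest, and WT hearts 5 and 7 lay inside the null range. The null mean was 25160 ± 5130 CPM and the WT mean 31563 ± 6373 CPM (SD, n = 4 each), with a log2 fold change of -0.33 (SE 0.19, 95% interval -0.75 to 0.09, edgeR quasi-likelihood adjusted p = 0.616), the smallest adjusted p of the 13. Over the alternative fits its log2 fold change ran from -0.43 to -0.20, with adjusted p from 0.392 to 0.876. Without WT heart 5 its unadjusted p was 0.0348, and without null heart 3 the log2 fold change was -0.20.

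The other abundant complex I mRNAs differed less. mt-Nd1 (ENSMUSG00000064341, chrM:2751-3707, plus strand), a membrane subunit at the ubiquinone site, was at 41249, 36126, 38551 and 39979 CPM in the null hearts and 37795, 40870, 33334 and 44834 CPM in the WT hearts. The WT hearts enclosed the null hearts, and the log2 fold change was -0.01 (SE 0.12, 95% interval -0.28 to 0.27, edgeR adjusted p = 0.995). mt-Nd2 (ENSMUSG00000064345, chrM:3914-4951, plus strand), an antiporter-like membrane subunit, was at 28543, 23665, 21775 and 23268 CPM in the null hearts and 23206, 28784, 23568 and 31972 CPM in the WT hearts. Null heart 1 reached the level of WT heart 6, and the log2 fold change was -0.14 (SE 0.15, 95% interval -0.47 to 0.18, edgeR adjusted p = 0.844). mt-Nd4 (ENSMUSG00000064363, chrM:10167-11544, plus strand), another antiporter-like subunit, was at 21689, 18345, 18510 and 18828 CPM in the null hearts and 20099, 19951, 16668 and 23416 CPM in the WT hearts. Again the WT range enclosed the null range, and the log2 fold change was -0.05 (SE 0.13, 95% interval -0.34 to 0.24, edgeR adjusted p = 0.953).

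The remaining complex I mRNAs were low. mt-Nd6 (ENSMUSG00000064368, chrM:13552-14070) is the mRNA of the minus strand, while the others lie on the plus strand, and it had 14628 to 21858 counts. It measured 630, 412, 556 and 508 CPM in the null hearts and 553, 603, 493 and 689 CPM in the WT hearts, with null heart 2 the lowest. The log2 fold change was -0.15 (SE 0.15, edgeR adjusted p = 0.841). mt-Nd3 (ENSMUSG00000064360, chrM:9459-9806) averaged 62.8 ± 11.0 CPM in null and 58.7 ± 13.5 CPM in WT hearts, with a log2 fold change of 0.10 (SE 0.17, edgeR adjusted p = 0.921). mt-Nd4l (ENSMUSG00000065947, chrM:9877-10173), whose end overlaps the start of mt-Nd4, averaged 22.3 ± 4.36 CPM in null and 25.9 ± 5.30 CPM in WT hearts (log2 fold change -0.21, SE 0.17, edgeR adjusted p = 0.778). In both of these low mRNAs the groups overlapped, and mt-Nd3 was higher rather than lower in the null mean.

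Complex III, the cytochrome bc1 complex, has mt-Cytb (ENSMUSG00000064370, chrM:14145-15288, plus strand), which holds its heme b groups, as its mitochondrially encoded subunit. It measured 53619, 46727, 46964 and 46956 CPM in the null hearts and 49357, 52141, 43331 and 58665 CPM in the WT hearts. Null hearts 2 to 4 lay close together with heart 1 above them, and the WT range enclosed all null values. The log2 fold change was -0.07 (SE 0.13, 95% interval -0.35 to 0.21, edgeR adjusted p = 0.930).

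Complex IV, cytochrome c oxidase, has 3 subunits encoded here. mt-Co1 (ENSMUSG00000064351, chrM:5328-6872, plus strand), which holds the oxygen-reducing site, was the most abundant mRNA of the set at 113537, 103626, 87814 and 100121 CPM in null hearts and 93119, 110490, 91485 and 133712 CPM in WT hearts. WT heart 8 was the highest and null heart 3 the lowest, and the groups overlapped, with a log2 fold change of -0.08 (SE 0.15, 95% interval -0.42 to 0.25, edgeR adjusted p = 0.929). mt-Co2 (ENSMUSG00000064354, chrM:7013-7696, plus strand), which receives electrons from cytochrome c, was at 98.4, 82.3, 114 and 103 CPM in null hearts and 104, 99.7, 81.3 and 109 CPM in WT hearts. Its group means almost coincided, at 99.3 ± 13.1 and 98.6 ± 12.2 CPM, with a log2 fold change of 0.01 (SE 0.12, edgeR adjusted p = 0.995). mt-Co3 (ENSMUSG00000064358, chrM:8607-9390, plus strand) averaged 91.2 ± 5.42 CPM in null and 97.2 ± 12.3 CPM in WT hearts (log2 fold change -0.09, SE 0.11, edgeR adjusted p = 0.869).

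Complex V, the ATP synthase, has mt-Atp6, part of its proton channel, and mt-Atp8, a small membrane subunit, whose reading frames overlap. mt-Atp6 (ENSMUSG00000064357, chrM:7927-8607, plus strand) was the steadiest of the 13 over the hearts, with a coefficient of variation of 6.64%, and averaged 88.7 ± 4.61 CPM in null and 89.8 ± 7.73 CPM in WT hearts (log2 fold change -0.02, SE 0.09, edgeR adjusted p = 0.982). mt-Atp8 (ENSMUSG00000064356, chrM:7766-7969, plus strand) was the most variable, at 33.8%. It measured 8.62, 5.81, 4.14 and 5.82 CPM in null hearts and 5.11, 9.46, 7.04 and 11.2 CPM in WT hearts. WT heart 5 lay below 3 of the null hearts, and null heart 3 was the lowest, with 109 counts. The log2 fold change was -0.42 (SE 0.27, 95% interval -1.01 to 0.17, edgeR adjusted p = 0.668). It was -0.64 without null heart 1 and -0.59 without WT heart 5 (unadjusted edgeR p 0.0385 and 0.0361, adjusted p 0.457 and 0.395), and -0.23 without WT heart 8.

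The make-up of the mitochondrial mRNA pool was read as percent of the mitochondrial counts. mt-Co1 made up 37.5% to 40.2% in all 8 hearts, mt-Cytb 17.6% to 20.2% and mt-Nd1 13.5% to 16.6%. The counts given to mt-Co2, whose level is uncertain, ran from 0.0320% to 0.0489%. mt-Nd5 moved most among the abundant genes, at 10.2%, 11.0%, 7.85% and 9.56% in the null hearts and 9.70%, 11.7%, 12.3% and 11.7% in the WT hearts. Null heart 3 was 0.42 below the mean of the 8 hearts on the log2 scale and WT heart 7 was 0.23 above it, and the groups overlapped between 9.70% and 11.0%. Null heart 3 and WT heart 5 were the highest of the 8 for both mt-Cytb (20.2% and 19.9%) and mt-Nd4 (7.95% and 8.08%). By complex, the 7 complex I mRNAs held 41.9% ± 0.258 of the mitochondrial counts in null and 42.8% ± 0.592 in WT hearts. Complex III held 18.8% ± 0.914 and 18.5% ± 0.967, complex IV 39.2% ± 1.03 and 38.7% ± 1.13, and complex V 0.0368% ± 0.00237 and 0.0356% ± 0.00189 (SD, n = 4 each). The parts of mt-Nd3, mt-Nd4l, mt-Co2, mt-Co3 and mt-Atp6 in these shares are uncertain, because nearly all their windows were shared. The low share of complex V therefore need not be its true level. The groups overlapped for every complex, but only barely for complex I, at 41.55% to 42.12% in null and 42.10% to 43.38% in WT hearts. The difference in complex I share was not tested.

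**Figure D4:**
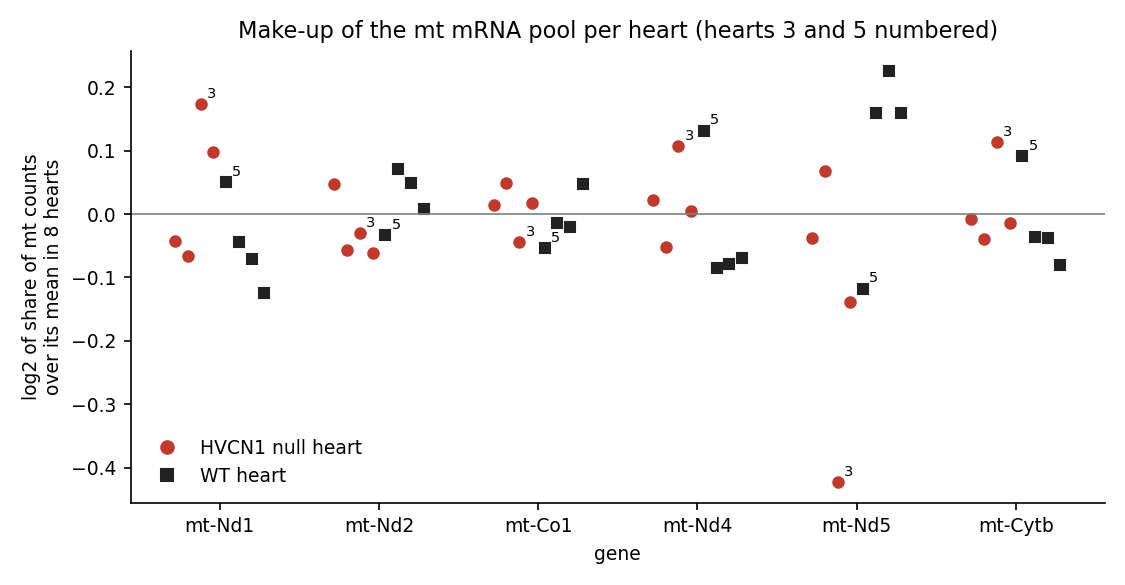
Deviation of each gene's percent of mitochondrial counts from its mean over the 8 hearts (log2 scale), for the 6 abundant genes, with a point for each of 4 HVCN1 null and 4 WT hearts and hearts 3 and 5 numbered. The deviation of mt-Nd5 is -0.42 in null heart 3 and 0.23 in WT heart 7.

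Because mt-Nd6 comes from the opposite strand to mt-Cytb, their ratio compares captured counts from both strands within a heart. Any difference in poly-A capture between the mRNAs was not measured. The ratio was 1.17%, 0.881%, 1.18% and 1.08% in the null hearts and 1.12%, 1.16%, 1.14% and 1.17% in the WT hearts. The WT hearts lay close together and null heart 2 lay below the rest. The null mean was 1.08% ± 0.141 and the WT mean 1.15% ± 0.0233 (SD, n = 4 each). Their log2 difference was -0.10, with a two-sided exact permutation p of 0.514 (70 assignments, smallest possible p 0.0286). mt-Nd5 and mt-Nd6 overlap on opposite strands at their ends, and the strand setting of the counting is not given in the sources used here. Reads of the opposite strand therefore cannot be told apart in that overlap or over the rest of mt-Nd6.

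The nuclear copies were counted at levels like those of the low mitochondrial genes. Over the 8 hearts Gm28661 had 39109 counts against 26638 for mt-Co2, Gm10925 had 36155 against 24170 for mt-Atp6 and Gm28437 had 29188 against 25502 for mt-Co3. Each of these copies had more counts than its mitochondrial gene. Gm10222 had 5003 against 6552 for mt-Nd4l and Gm28438 had 3601 against 16310 for mt-Nd3, the copy in each case below the gene. For the abundant genes the copies were a small addition, as with Gm28439 at 17882 counts against 5325120 for mt-Nd4 and Gm4076 at 1178 against 7701229 for mt-Nd5. Gm13340, the most counted copy at 48211, and Gm29216 at 35813 stood against 28183492 for mt-Co1, and Gm13339 at 3767 against 6918125 for mt-Nd2. Gm13341, a further copy of mt-Co2, had 9343 counts. All 11 copies were tested and 0 passed an adjusted p of 0.05 (smallest 0.710, edgeR quasi-likelihood), with 4 higher in the null mean. Summing each mitochondrial gene with its copies left all 13 mRNAs short of the threshold. Any reads counted for neither gene nor copy are missing from these sums, so the sums cannot settle the shared sequence.

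Nuclear genes that act on mitochondrial DNA and RNA were read beside the mRNAs. Of 18 genes of mitochondrial DNA transcription and replication, 5 were higher and 13 lower in null hearts, the median log2 fold change was -0.09 and 0 passed the test, against 1.14% of all genes. An unadjusted p under 0.05 was found for 4 of the 18, against 11.0% of all genes. Polrmt, the mitochondrial RNA polymerase, averaged 41.0 ± 4.58 CPM in null and 35.4 ± 2.10 CPM in WT hearts (log2 fold change 0.21, SE 0.10, edgeR adjusted p = 0.447). Tfam, which packages mitochondrial DNA and starts transcription, averaged 28.7 ± 1.89 and 32.0 ± 2.69 CPM (log2 fold change -0.16, SE 0.09, edgeR adjusted p = 0.587). The polymerase and Tfam thus had opposite signs, neither past the threshold. Mgme1, a nuclease of mitochondrial DNA replication, was the 1 member of 18 whose groups did not overlap, against 7.06% of all genes, at 13.1, 14.0, 13.5 and 9.24 CPM in null hearts and 16.6, 15.7, 15.4 and 17.3 CPM in WT hearts, with a log2 fold change of -0.38 (SE 0.13, edgeR adjusted p = 0.265). Mterf2, of the mitochondrial transcription termination factor family, had a log2 fold change of -0.41 (SE 0.14, edgeR adjusted p = 0.272). Mterf1b, of the same family, was scarce at 0.378 ± 0.0791 and 0.672 ± 0.175 CPM (log2 fold change -0.82, SE 0.30, edgeR adjusted p = 0.327). Its near-identical paralog Mterf1a, of the same list, went the other way at 1.07 ± 0.222 and 0.820 ± 0.0799 CPM (log2 fold change 0.38, SE 0.24, edgeR adjusted p = 0.678). The counts of both are therefore uncertain, and how reads were divided between them was not tested.

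Of 26 genes that process, tail or degrade mitochondrial RNA, 8 were higher and 18 lower in null hearts, with a median log2 fold change of -0.04 and 0 past the test, against 52.7% lower, a median of -0.01 and 1.14% called over all genes. Lrpprc, which stabilises mitochondrial mRNAs, averaged 151 ± 11.3 and 148 ± 26.4 CPM (log2 fold change 0.03, SE 0.13, edgeR adjusted p = 0.980). Mtpap is the mitochondrial poly-A polymerase, on whose tails the capture of most of these mRNAs rests. It averaged 13.9 ± 1.19 and 16.2 ± 1.25 CPM (log2 fold change -0.22, SE 0.10, edgeR adjusted p = 0.451). Tail length was not measured. Mrm1 and Mrm3, methyltransferases of the mitochondrial ribosomal RNA, had log2 fold changes of 0.26 (SE 0.13, edgeR adjusted p = 0.518) and -0.23 (SE 0.17, edgeR adjusted p = 0.742).

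Of 9 regulators of mitochondrial biogenesis, 6 were higher and 3 lower in null hearts, with a median log2 fold change of 0.02 and 0 past the test, against 1.14% of all genes. Ppargc1a, the coactivator PGC-1alpha, averaged 83.2 ± 17.3 and 81.7 ± 13.9 CPM (log2 fold change 0.03, SE 0.17, edgeR adjusted p = 0.986). Pprc1, a related coactivator, measured 31.0, 25.1, 26.4 and 22.0 CPM in null hearts and 19.0, 19.6, 20.4 and 21.4 CPM in WT hearts. All null values lay above all WT values, by little for null heart 4. Pprc1 was the 1 member of 9 whose groups did not overlap, against 7.06% of all genes. Its log2 fold change was 0.38 (SE 0.11) with an edgeR quasi-likelihood adjusted p of 0.163. DESeq2, which called 3.15% of all genes, gave Pprc1 an adjusted p of 0.0447, the lowest of a range up to 0.407 over the alternatives. Esrra, a nuclear receptor that works with PGC-1alpha, had a log2 fold change of -0.15 (SE 0.13, edgeR adjusted p = 0.812) and Ppara, a receptor for fatty acid metabolism, 0.16 (SE 0.21, edgeR adjusted p = 0.887).

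Complexes I, III, IV and V join mitochondrial subunits to subunits encoded in the nucleus. Of 26 nuclear partners, 23 were higher and 3 lower in null hearts, against 52.7% of all genes lower, with a median log2 fold change of 0.09. None passed the test, against 1.14% of all genes, and none had an unadjusted p under 0.05, against 11.0%. Ndufs7 of complex I averaged 384 ± 69.1 and 349.8 ± 54.2 CPM (log2 fold change 0.14, SE 0.16, edgeR adjusted p = 0.869). Cox6c of complex IV averaged 605 ± 99.0 and 541 ± 84.1 CPM (log2 fold change 0.16, SE 0.15, edgeR adjusted p = 0.821). Cox8b, the muscle isoform of another complex IV subunit, averaged 420.2 ± 95.1 and 379 ± 93.0 CPM (log2 fold change 0.15, SE 0.20, edgeR adjusted p = 0.895). The median of the partners thus lay above that of all genes and the median of the 13 mitochondrial mRNAs below it, and the difference between the medians was not tested.

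**Figure D5:**
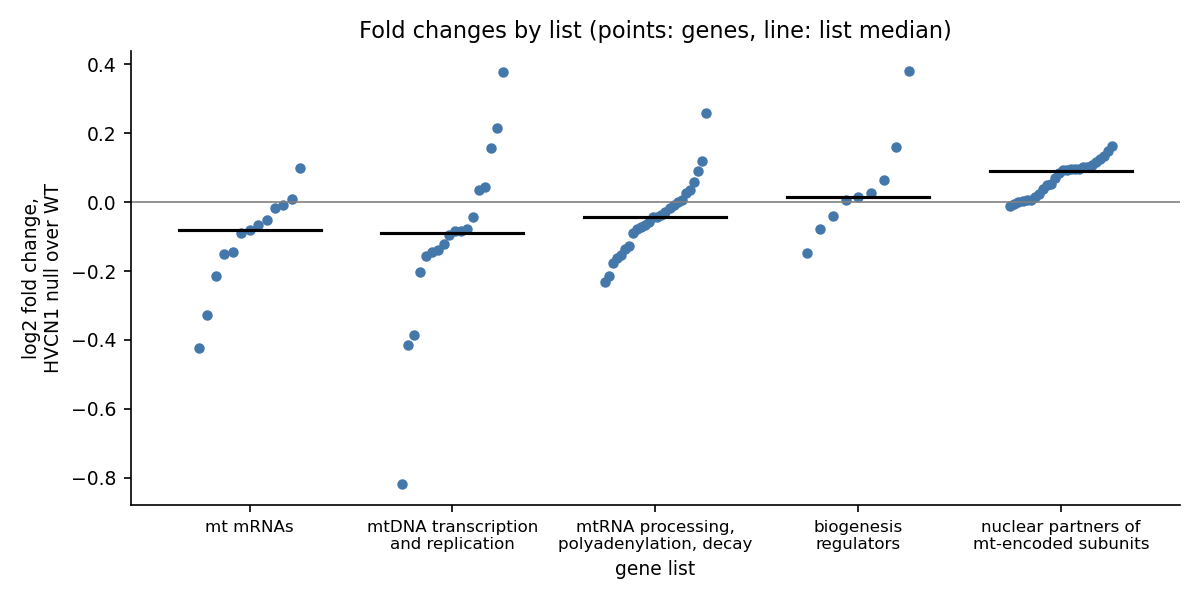
Log2 fold changes (HVCN1 null over WT) of the mitochondrial mRNAs and the 4 nuclear gene groups, with a point for each gene and a line for each median. The medians run from -0.09 for mitochondrial DNA transcription and replication to 0.09 for the nuclear partners, against -0.01 over all genes.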

How the data were processed

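Libraries were prepared with a poly-A capture kit and sequenced as paired 50-base reads. Per the labels, the authors aligned with STAR and counted with featureCounts on mm10 (GRCm38). The study's methods name a human build, and the mouse builds of the submitters' processing notes were used here. The deposited values are raw read counts per Ensembl gene, with no normalization. Of 39056 listed identifiers, 38872 (99.5%) matched GENCODE M21, which gave symbols, positions and transcripts.

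Genes passing edgeR's filterByExpr (14796) were scaled by TMM and tested with edgeR 4.0.16 (R 4.3.3) quasi-likelihood F tests, HVCN1 null against WT, with Benjamini-Hochberg adjustment. CPM uses TMM-scaled library sizes. The ratio of mt-Nd6 to mt-Cytb was tested by exact permutation over 70 assignments. No test was run on the summed share. Nuclear copies were found with BLAST+ 2.17.0. The fit was tested on simulated counts. Alternatives included DESeq2 1.42.0, limma 3.58.1 voom, other scalings and filters, and leaving out each heart. Summing nuclear copies with their mitochondrial gene was chosen after seeing the data. The 8 hearts came from separate mice, and litters or processing days are not given in the sources used here.

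Named genes were all mt- genes, the tested nuclear copies, Hvcn1, and, in each nuclear list, the 3 of largest absolute log2 fold change, with Polrmt, Tfam, Lrpprc and Ppargc1a. Mterf1a was added beside Mterf1b after its value was seen. The members and lists were chosen with earlier results of these data known. Ratios using mitochondrial ribosomal RNAs were planned and are not analysed here.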

Additional observations from a re-analysis of the deposited data

Results flagged for a closer look

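Each group's 4 values of each gene's CPM and percent of mitochondrial counts, of the mitochondrial share and of the ratio of mt-Nd6 to mt-Cytb were searched for a heart far from the other 3 by Dixon's ratio (critical value 0.829), in 56 groups of values, and chance flags about 1 in 20 such groups. For mt-Cytb, null heart 1 was at 53619 CPM against 46727 to 46964 in the other null hearts, and for mt-Nd4 the same heart was at 21689 CPM against 18345 to 18828. WT heart 5 held 8.08% of its mitochondrial counts on mt-Nd4 against 6.95% to 7.04% in the other WT hearts, and 0.0421% on mt-Co3 against 0.0322% to 0.0338%. Null heart 1 also had the highest mitochondrial share of its group, 29.5%, and WT heart 5 the lowest of its group, 25.3%.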

How the results depend on the processing

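Over 17 alternative fits none of the 221 values for the mitochondrial mRNAs passed an adjusted p of 0.05 (smallest 0.392). mt-Nd2, mt-Atp8, mt-Co3, mt-Nd4l, mt-Nd5 and mt-Nd6 were lower in null hearts in every fit, with a heart left out at -0.23 to -0.046, -0.64 to -0.23, -0.17 to -0.037, -0.31 to -0.079, -0.43 to -0.20 and -0.25 to -0.050 in that order. The other 7 reversed in some fit. mt-Nd1 reversed to a log2 fold change of 0.0039 with RLE scaling and with DESeq2 and to 0.038 without scaling, and mt-Atp6 to 0.026 without scaling and 0.020 with nuclear copies summed in. Leaving out each heart in turn gave -0.074 to 0.067 for mt-Nd1, -0.15 to 0.047 for mt-Co1, -0.067 to 0.090 for mt-Co2, -0.058 to 0.033 for mt-Atp6, -0.0023 to 0.26 for mt-Nd3, -0.12 to 0.038 for mt-Nd4 and -0.13 to 0.014 for mt-Cytb. The same gave -0.035 to 0.14 for Lrpprc, -0.10 to 0.14 for Ppargc1a and -0.014 to 0.28 for Ppara. Over all genes, 169 were called, against 367 with edgeR's exact test, 466 with DESeq2 and 71 to 152 with a heart left out (99 without null heart 1, 103 without null heart 3, 92, 71 and 104 without WT hearts 5, 6 and 8). Among the 9 biogenesis regulators DESeq2 called 1, Pprc1 (log2 fold change 0.39), against 3.15% of all genes. The median log2 fold change of all genes moved from -0.01 to 0.026 without scaling, the largest shift. The cause of these changes was not tested, and the fits with a heart left out also have fewer samples. The share without WT heart 8 differed by 0.134 points, and over the hearts left out by -2.01 to 0.134. Keeping only protein-coding mitochondrial genes changes nothing here, since all 13 are. No paired analysis was possible because no pairing of the mice is given in the sources used here. For the 13 mitochondrial mRNAs, the spread between hearts limits the comparison of genotypes more than depth. Even mt-Atp8 has a counting error of 9.58% at its lowest count against a coefficient of variation of 33.8%. This does not hold for every nuclear gene named, as Mterf1b had only 8 to 32 counts in a heart.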
